A study of Mus musculus with 8 samples.

Results

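Homeobox, Sox, Fox and patterning transcription factors were examined in astrocyte cultures of newborn Spp1 knockout and wild-type mice. The set was chosen by name from the authors' deposited table, as every row of the Hox, sine oculis-related, Lhx, Pax, Sox, Fox, Meis, Dlx, Irx, Nkx, Pou, Otx, Rax, Meox, Vsx, Msx, Tbx, Zic, Alx, Pitx, Emx, Prrx, Tfap2, Hes or Hey families, without Sox10 and Foxd3. It held 48 of the 3624 genes in that table. The cultures came from retinas and optic nerves taken at postnatal day 1 to 3, and were grown with fetal bovine serum. Wild type was C57BL/6 (4 samples), and the Spp1-/- samples (4) carried the strain name B6.129S6(Cg)-Spp1tm1Blh/J, a targeted allele. The labels give no sex, litter or batch, nor do they tell if each genotype's 4 samples came from separate cultures. The p-values then speak only of variation among these samples, possibly technical.

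Homeobox, Sox, forkhead, POU, Pax, Zic and T-box proteins bind DNA and assign cells their place and fate in the embryo. Eye-field factors such as Rax and Six3 set aside the part of the forebrain that becomes retina and optic stalk, and Pax2 marks the optic stalk and the astrocyte precursors that arise there. Neural crest factors act at the border of the neural plate, and mesenchymal factors act in the loose tissue around the brain and eye, part of which comes from crest. Many Hes and Hey proteins are repressors switched on by Notch signalling, whereas Hes6 inhibits the activity of Hes1.

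The deposited values are 1 log2 fold change per gene (knockout over wild type) with its standard error. The direction was read from Spp1, the deleted gene, at -5.90 (standard error 0.11) in the authors' deposited table. Values per sample were not analysed here, so no spread over samples can be shown. In place of sample values, the implied mean is given: the mean normalized count of each genotype worked out from the mean count over all samples and the fold change, with equal group sizes. In bulk RNA, fewer cells of a type and less RNA per cell cannot be told apart. The Y-linked gene Ddx3y had an implied mean of 0.164 in wild type and 1605 in the knockout, so sex and genotype cannot be told apart for any gene below. Other Y-linked genes were higher too: Eif2s3y (0.164 and 550), Uty (7.12 and 457) and Kdm5d (14.99 and 904.5). Of the 6 listed genes of the Y chromosome, 5 were higher and 1 was lower. Xist, the X-inactivation gene, was not listed, and its absence is not read as no change. Of the members, Sox3 and Pou3f4 are X-linked, and the 148 listed genes of that chromosome were 72 higher and 76 lower.

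Lower values prevailed among the members, with 32 lower and 16 higher in the knockout. Over all listed genes the balance was the other way, with 45.1% lower and 54.9% higher. The median log2 fold change was -0.97 over the members and 0.66 over all listed genes. A fall of at least 1 on the log2 scale was listed for 23 members, or 47.9%, against a background of 22.5%, and a rise of that size for 7 members, or 14.6%, against 35.5%. Falls of at least 3 were found for 8 members (16.7%, against 4.14% of all listed genes). These shares are descriptions, since genes that act in the same cells are not independent.

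**Figure D1:**
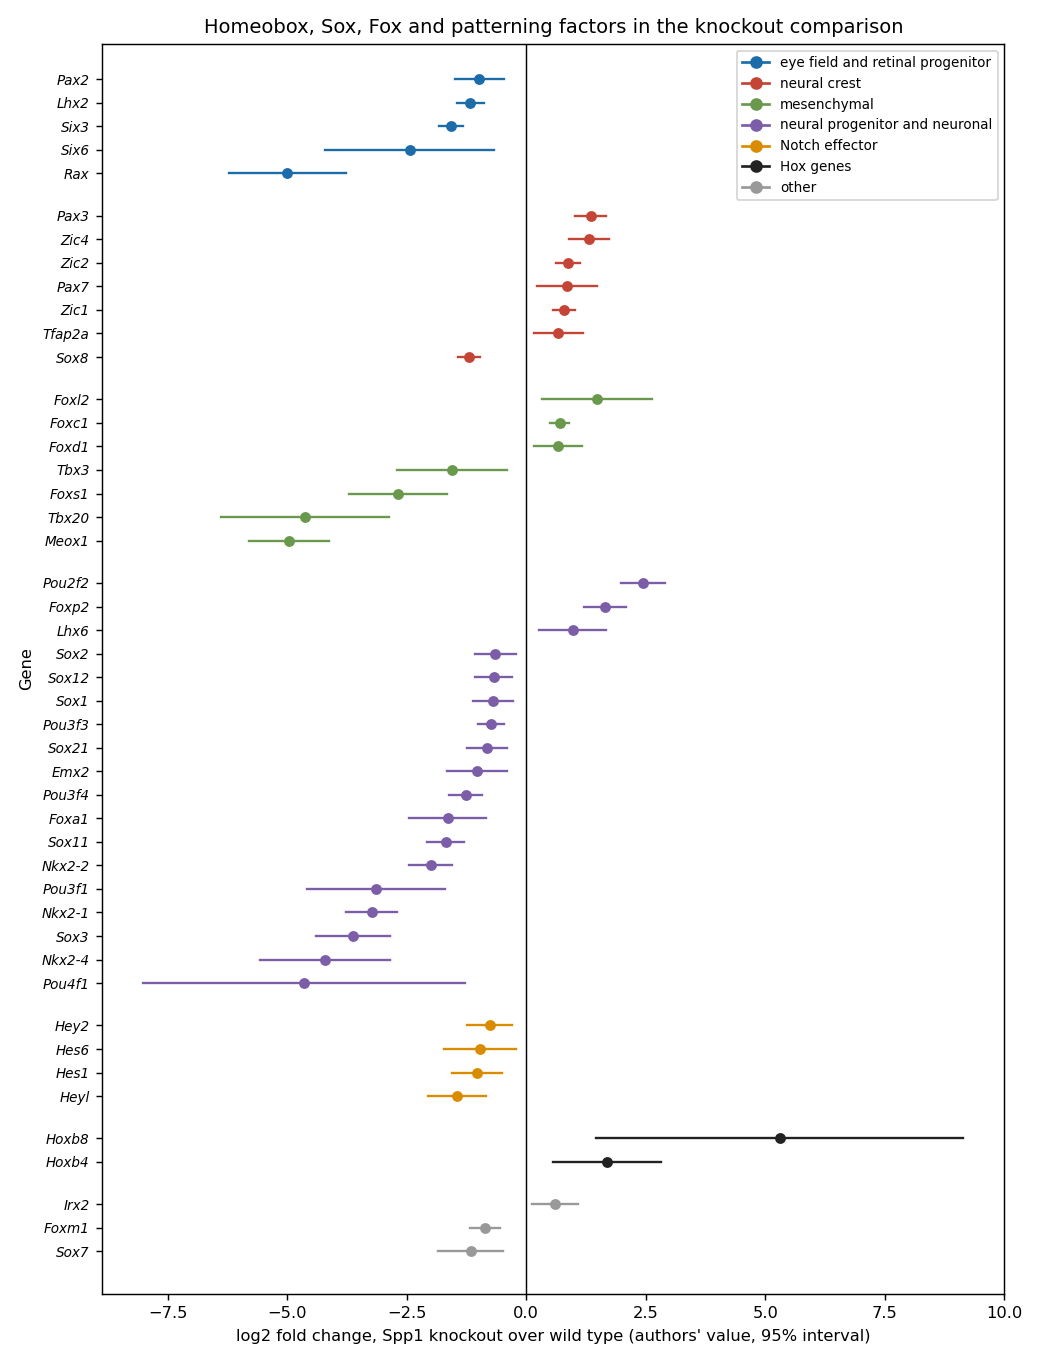
Log2 fold change of knockout over wild type (x axis) with its 95% interval (bars) for 46 of the 48 members (y axis), coloured by role. The 5 eye-field members all lie left of 0, 6 of 7 neural crest members lie right of it, and the mesenchymal members drawn lie on both sides.

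Every gene in the table had passed an adjusted p below 0.05 and a change of 0.58 or more on the log2 scale, either way, before deposit, so all 48 members had passed by construction. The annotation holds 221 protein-coding names that fit the rule, and 21.7% of them were listed, against 16.1% of all protein-coding names. The 173 unlisted names could have failed a limit or been left untested, and their absence is not read as no change. Families differed in how many names were listed. The Zic family had 3 of 5, Sox 8 of 18 and Hes and Hey 4 of 9, whereas Hox had 2 of 39, and Dlx (6 names) and Meis (3 names) had 0. All 8 listed Sox genes, all 4 Hes and Hey genes, all 3 Nkx genes, Six3 and Six6, and Tbx3 and Tbx20 were lower. All 3 Zic genes and both Hox genes were higher, and the 8 forkhead genes were evenly divided.

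**Figure D2:**
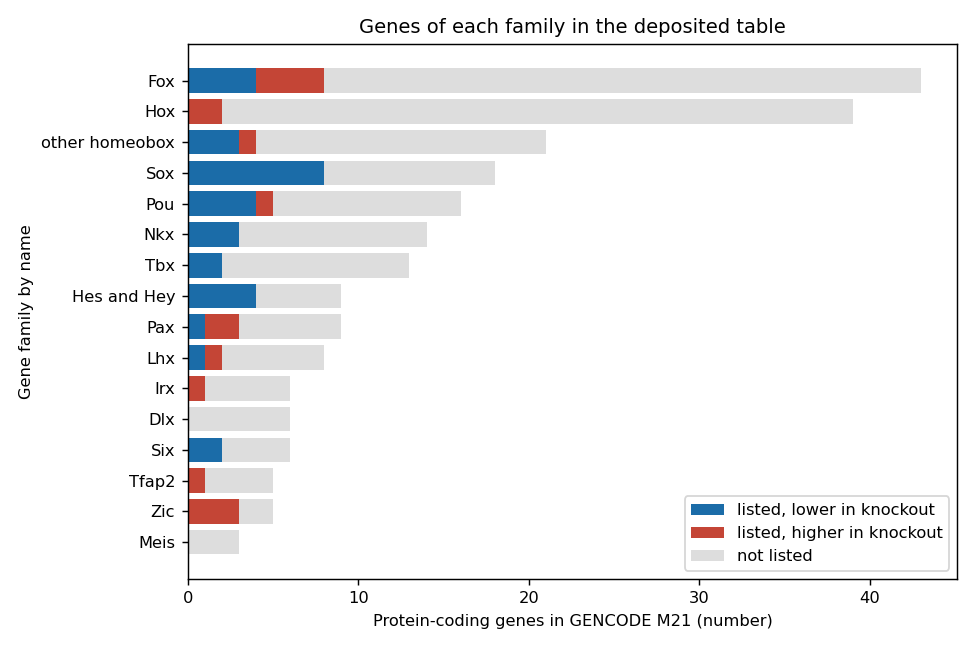
Number of protein-coding genes in the annotation (x axis) for each family (y axis), with bars divided into listed and lower, listed and higher, and not listed. Sox and Hes and Hey have lower members only, Zic has higher members only, and 37 of 39 Hox genes are not listed.

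Eye-field and retinal progenitor factors fell. Of the 9 genes on this list 5 were listed, all lower, and their median stood at -1.57 on the log2 scale, and implied means summed to 4235 in wild type but 1639 in the knockout. Rax, a homeobox gene needed to form the eye, went from an implied mean of 91.1 to 2.85. Its log2 fold change was -5.00 in the authors' deposited table (standard error 0.63, adjusted p = 5.16e-14), rank 34 among all 3624 genes from the largest fall. The 95% interval of -6.23 to -3.77 is wide, and the implied mean in the knockout is near 0. The antisense gene Raxos1 covers 27.4% of the exon bases of Rax, and reads there cannot be assigned without strand. Six3, which keeps the anterior brain free of posteriorising signals, had a wild-type level of 357 per kb of exon, against 15.6 for Rax, and went from an implied mean of 1945 to 654. It stood at -1.57 (standard error 0.13, adjusted p = 2.5e-32) in the authors' deposited table. Its paralogue Six6, a factor of retina and pituitary, stood at -2.44 (standard error 0.90) in the authors' deposited table, from 16.3 to 3.01. The interval of Six6, -4.21 to -0.67, covers that of Six3, so the paralogues are not separated in size of fall.

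Lhx2, a LIM homeobox gene kept on in Müller glia after eye formation, went from 2020 to 897, and its log2 fold change was -1.17 (standard error 0.14) in the authors' deposited table. Pax2, the optic stalk and astrocyte precursor gene, went from 162 to 81.9, at -0.98 (0.26, adjusted p = 0.00105) in the authors' deposited table. The fall of Rax exceeded those of Six3, Lhx2 and Pax2, whose 95% intervals did not overlap its own. Partner genes outside the name rule were 2 of 8 listed, in opposite directions. Vax1, another optic stalk homeobox gene, stood at -2.21 (0.58), and Mitf, the regulator of pigment cells that is also used in macrophages and osteoclasts, at 1.28 (0.22) in the authors' deposited table. Pigment cell and pigment epithelium markers were 2 of 8 listed, Best1 higher and Dct lower, both at low counts. Beside the eye-field genes, the listed Müller glia markers were 2 of 6, both lower (Crym and Rlbp1, summed implied mean 795 against 485), and neuron markers 5 of 8, all lower (17940 against 8072). Their part in the fall of the eye-field genes was not tested.

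The stretches upstream of the Six3 and Six6 starts are shown because these paralogues fell together. They run 5′ to 3′ over the 250 bases before the RefSeq start in GRCm38.p6, at chr17:85620584-85620833 (plus strand) and chr12:72939632-72939881 (plus strand). The RefSeq start used for Six3, at 85620834, lies inside its annotated gene body (85613608 to 85629302). The Six3 stretch is therefore not upstream of the whole annotated gene. Capitals mark CpG dinucleotides, of which Six3 holds 10 and Six6 17.
Six3: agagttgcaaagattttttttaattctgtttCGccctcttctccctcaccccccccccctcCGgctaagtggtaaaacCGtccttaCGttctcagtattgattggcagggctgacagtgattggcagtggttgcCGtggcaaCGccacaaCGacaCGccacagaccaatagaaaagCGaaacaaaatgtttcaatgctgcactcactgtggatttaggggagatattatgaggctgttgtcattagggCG
Six6: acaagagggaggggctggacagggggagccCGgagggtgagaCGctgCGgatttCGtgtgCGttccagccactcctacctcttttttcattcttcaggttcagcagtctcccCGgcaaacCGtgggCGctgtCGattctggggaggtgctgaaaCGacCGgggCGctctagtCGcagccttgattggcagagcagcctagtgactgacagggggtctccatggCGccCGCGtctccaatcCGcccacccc

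The listed neural crest factors were mostly higher. The list leaves out Sox10 and Foxd3 by the name rule, so its counts do not cover all crest factors. Of 22 genes on this list 7 were listed, 6 higher and 1 lower, and the median was 0.85 on the log2 scale. Per kb of exon, Zic1 and Zic2 were the most abundant of those that rose. Zic genes encode zinc finger regulators of the dorsal neural tube that are also used in meninges. Zic1 went from an implied mean of 1616 to 2802 and stood at 0.79 (standard error 0.12, adjusted p = 5.71e-10) in the authors' deposited table. Zic2 went from 1142 to 2098, at 0.88 (0.13), and Zic4 from 254 to 634, at 1.32 (0.21), in the authors' deposited table. The intervals of these 3 genes overlapped, from 0.56 to 1.03 for Zic1, 0.63 to 1.12 for Zic2 and 0.90 to 1.74 for Zic4. Pax3, which acts in dorsal neural tube, neural crest and muscle precursors, rose the most of the list. It went from 142 to 363, at 1.35 (0.16, adjusted p = 5.54e-15) in the authors' deposited table. Its paralogue Pax7 went from 36.9 to 66.5, at 0.85 (0.32), and Tfap2a, the AP-2 alpha gene of neural crest and surface ectoderm, from 81.0 to 129, at 0.67 (0.26), in the authors' deposited table. Markers of meningeal and periocular fibroblasts were 7 of 10 listed, all higher, with implied means that summed to 37140 in wild type but 105300 in the knockout. Their part in the rise of the crest genes was not tested.

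The exception was Sox8, a relative of Sox9 that is active in glial precursors as well as crest. It went from 1688 to 734, at -1.20 (0.11, adjusted p = 4.3e-24) in the authors' deposited table, the most precisely measured gene on the list. Beside it, markers of the oligodendrocyte lineage were 7 of 8 listed, all lower (summed implied mean 25780 in wild type and 6915 in the knockout). Schwann cell markers, whose list overlaps that one, were 6 of 8, all lower (4055 and 763). Their part in the fall of Sox8 was not tested. Of 10 partner genes of crest outside the name rule, 1 was listed: Ednrb, the endothelin receptor of crest-derived cells, at 0.88 (0.19) in the authors' deposited table.

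Zic1 and Zic4 lie on opposite strands of chromosome 9. Zic1 is on the minus strand at 91358058 to 91365810 and Zic4 on the plus strand at 91362413 to 91389348 (GRCm38), so the gene bodies overlap by 3398 bases. Their annotated exons share 60 bases. The RefSeq start used below for Zic4, at 91368972, lies inside its annotated gene body, beyond the Zic1 end and so outside the overlap. The sources used here do not give the strand setting of the counting, so reads in the shared bases could be assigned to either gene. The 250 bases before each RefSeq start, at chr9:91365769-91366018 (minus strand, Zic1) and chr9:91368722-91368971 (plus strand, Zic4), are shown because this pair rose together. Capitals mark CpG dinucleotides, 27 for Zic1 and 4 for Zic4.
Zic1: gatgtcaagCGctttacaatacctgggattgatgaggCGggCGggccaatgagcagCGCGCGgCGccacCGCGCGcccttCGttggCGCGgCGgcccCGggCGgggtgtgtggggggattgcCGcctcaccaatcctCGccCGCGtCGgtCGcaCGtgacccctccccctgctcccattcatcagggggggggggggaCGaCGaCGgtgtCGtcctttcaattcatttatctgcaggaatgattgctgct
Zic4: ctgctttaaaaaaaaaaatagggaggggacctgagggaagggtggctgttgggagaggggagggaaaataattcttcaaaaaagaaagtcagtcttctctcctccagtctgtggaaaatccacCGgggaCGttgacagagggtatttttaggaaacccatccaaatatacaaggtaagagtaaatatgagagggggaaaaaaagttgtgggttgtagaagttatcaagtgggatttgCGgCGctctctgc

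Mesenchymal factors moved in both directions. Of 31 genes on this list 8 were listed, 4 of them higher, 4 of them lower and the median at -0.45 on the log2 scale. Per kb of exon, the most abundant was Foxc1, a forkhead gene of meninges and periocular mesenchyme. It went from an implied mean of 2419 to 3927, at 0.70 (standard error 0.10, adjusted p = 4.05e-11) in the authors' deposited table. Foxd1, a forkhead gene of stromal tissue and of temporal retina, went from 849 to 1346, at 0.66 (0.25), in the authors' deposited table. Foxl2, a forkhead gene of eyelid mesenchyme and ovary, went from 15.9 to 44.3, at 1.48 (0.59, adjusted p = 0.0415) in the authors' deposited table.

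The 4 mesenchymal genes that fell stood between -1.55 and -4.97, and the 4 that rose between 0.66 and 1.48. The smallest fall (Tbx3) and the largest rise (Foxl2) are not separated in size, given their standard errors of 0.58 and 0.59. Meox1, a homeobox gene of somites, went from 200.03 to 6.38, at -4.97 (0.43, adjusted p = 1.36e-29) in the authors' deposited table, a 31.4-fold lower level (95% interval 17.6 to 55.9). Tbx20, a T-box gene of heart, stood at -4.63 (0.90) in the authors' deposited table and reached an implied mean of 1.09 from 26.9. Foxs1, a forkhead gene of pericytes and crest derivatives, went from 96.9 to 15.1, at -2.68 (0.52), and Tbx3, a T-box gene of limb, heart and dorsal retina, from 143 to 48.8, at -1.55 (0.58), in the authors' deposited table. Among members averaging 100 or more normalized counts the list gave 1 lower of 4, and among those with a change of at least 1 on the log2 scale 4 lower of 5. Its direction therefore depends on which members are counted.

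Set side by side, the lower members were 5 of 5 in the eye field, 1 of 7 in neural crest and 4 of 8 in mesenchyme. The crest count is without Sox10 and Foxd3. On the lists given below, lower members were 16 of 19 among neural progenitor and neuronal factors and 4 of 4 among Notch effectors. Over all listed genes 45.1% were lower. These differences between lists were not tested, since genes are not replicates. The lists were chosen with earlier results of these data known.

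Of 15 partner genes of the mesenchymal list 4 were listed, 3 lower and 1 higher, where 45.1% of all listed genes were lower. So few genes do not give a direction. The basic helix-loop-helix genes Twist1 (-1.22, standard error 0.21), Twist2 (-1.70, 0.37) and Scx (-1.45, 0.40) were lower and Osr1 (0.62, 0.20) was higher in the authors' deposited table. The fibroblast markers given above were 7 of 10 higher. Pericyte and smooth muscle markers were 3 of 8 listed, all lower (90160 and 46930), and 1 of the 3, Cspg4, is also among the oligodendrocyte lineage markers. These lists moved beside the higher and the lower mesenchymal factors, and their part in either was not tested. Tbx3 is the member on chromosome 5, 15.2 Mb from Spp1.

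Neural progenitor and neuronal factors formed the largest group and fell in 16 of 19 listed members, of 44 genes on the list. The median log2 fold change was -1.27, and implied means summed to 16810 in wild type but 10380 in the knockout. All 3 genes of the SoxB1 group, which hold cells in a progenitor state, were lower but by unequal amounts. Sox2 went from 4743 to 3027, at -0.65 (standard error 0.22, adjusted p = 0.0147), and Sox1 from 1430 to 881, at -0.70 (0.22), in the authors' deposited table. Sox3, the X-linked member, went from 301 to 24.4, at -3.62 (0.40, adjusted p = 1.99e-18) in the authors' deposited table. The interval of Sox3, -4.40 to -2.85, lay apart from those of Sox1 (-1.12 to -0.27) and Sox2 (-1.08 to -0.21). Sox21, a repressor that opposes SoxB1 proteins and shares 18.8% of its exon bases with the antisense gene Gm4675, stood at -0.82 (0.21) in the authors' deposited table. Of the SoxC genes of newborn neurons, Sox11 stood at -1.69 (0.20) and Sox12 at -0.68 (0.20) in the authors' deposited table.

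POU factors of class III, which act in neural progenitors and glia, were lower in 3 of 4 genes, and Pou3f2 was not listed. Pou3f1, also a regulator of Schwann cells, went from 36.4 to 4.12, at -3.14 (0.73), in the authors' deposited table. Pou3f4 stood at -1.27 (0.18) and Pou3f3, the most abundant of the group per kb of exon, at -0.74 (0.14) in the authors' deposited table. Pou4f1, a class IV gene of retinal ganglion cells and sensory neurons, stood at -4.64 (standard error 1.72) in the authors' deposited table. Its implied means of 8.3 and 0.332 are so low that the size of the fall is poorly fixed (95% interval -8.01 to -1.27).

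All 3 listed Nkx genes fell. The Nkx2 genes specify ventral neural tube, and Nkx2-1 and Nkx2-4 mark hypothalamus. Nkx2-1 went from 201 to 21.3, at -3.24 (0.27, adjusted p = 4.7e-31) in the authors' deposited table, a 9.42-fold lower level (95% interval 6.52 to 13.6). Nkx2-4 went from 55.8 to 3.01, at -4.21 (0.70), in the authors' deposited table. Nkx2-2, which is also used in oligodendrocyte precursors, went from 318 to 79.7, at -1.998 (0.23, adjusted p = 1.9e-16) in the authors' deposited table. Foxa1, a forkhead gene of the floor plate, stood at -1.64 (0.41) in the authors' deposited table. Of 8 ventral neural tube genes 4 were listed, all lower, and of 10 dorsal neural tube genes (the Zic, Pax3 and Pax7, and Msx genes) 5 were listed, all higher, from 0.79 to 1.35. This dorsal and ventral grouping was made after the values were seen and carries no test. It leaves out Lhx6, a gene of ventral forebrain interneurons, which rose (0.97, 0.36) in the authors' deposited table.

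Nkx2-2 and Nkx2-4 are neighbours on chromosome 2, both on the minus strand and 92.1 kb apart. The 250 bases before each RefSeq start, at chr2:147186403-147186652 and chr2:147085346-147085595 (minus strand), are shown because this linked pair fell together. The RefSeq start used for Nkx2-2, at 147186402, lies inside its annotated gene body (147177546 to 147194243). The Nkx2-2 stretch is therefore not upstream of the whole annotated gene. Capitals mark CpG dinucleotides, 8 for Nkx2-2 and 33 for Nkx2-4.
Nkx2-2: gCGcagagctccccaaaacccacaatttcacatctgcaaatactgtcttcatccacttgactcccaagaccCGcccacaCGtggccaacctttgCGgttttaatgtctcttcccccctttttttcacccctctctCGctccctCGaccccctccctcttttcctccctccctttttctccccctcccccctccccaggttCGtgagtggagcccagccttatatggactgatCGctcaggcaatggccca
Nkx2-4: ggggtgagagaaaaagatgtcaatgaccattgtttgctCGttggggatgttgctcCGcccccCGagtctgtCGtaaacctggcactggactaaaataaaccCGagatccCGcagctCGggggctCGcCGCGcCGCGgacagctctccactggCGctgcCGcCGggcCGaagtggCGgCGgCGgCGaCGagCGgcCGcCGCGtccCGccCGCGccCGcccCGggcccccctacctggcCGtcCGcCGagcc

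Emx2, a homeobox gene of cortex, was lower too, from 281 to 138, at -1.03 (0.32) in the authors' deposited table. Pou2f2, Foxp2 and Lhx6 were the 3 neural members that rose. Pou2f2 stood at 2.43 (0.23, adjusted p = 1.79e-23), Foxp2 at 1.65 (0.22) and Lhx6 at 0.97 (0.36) in the authors' deposited table. Foxp2 is a forkhead gene of several brain regions, and Lhx6 belongs to interneurons of the ventral forebrain. Pou2f2 encodes Oct-2, best known from B lymphocytes, so its place on a neural list does not describe its main use. Macrophage markers were 8 of 8 listed, all higher, with a summed implied mean of 6712 in wild type and 41600 in the knockout, and their part in the rise of Pou2f2 was not tested.

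Among partner genes of this group, 6 of 17 were listed, 5 lower and 1 higher. Olig2 (-1.93, standard error 0.20) and Olig1 (-1.61, 0.17), basic helix-loop-helix genes of oligodendrocyte precursors, were lower in the authors' deposited table. En2, a homeobox gene of midbrain and hindbrain, was higher at 1.04 (0.25) in the authors' deposited table. The lower neural factors thus stood beside lower markers of oligodendrocytes (7 of 8), Schwann cells (6 of 8) and neurons (5 of 8), with no marker of these lists higher. Their part was not tested. Astrocyte markers were 5 of 8 listed, 3 higher and 2 lower. Gfap (implied mean 58310 in wild type and 91920 in the knockout), Aqp4 (15580 and 34520) and Gjb6 were higher. Fabp7 (9011 and 3836) and S100b (913 and 259) were lower. Their summed implied mean, 83840 in wild type and 130800 in the knockout, was mostly Gfap. The cultures thus held markers that their label names, but these markers gave no common direction.

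**Figure D3:**
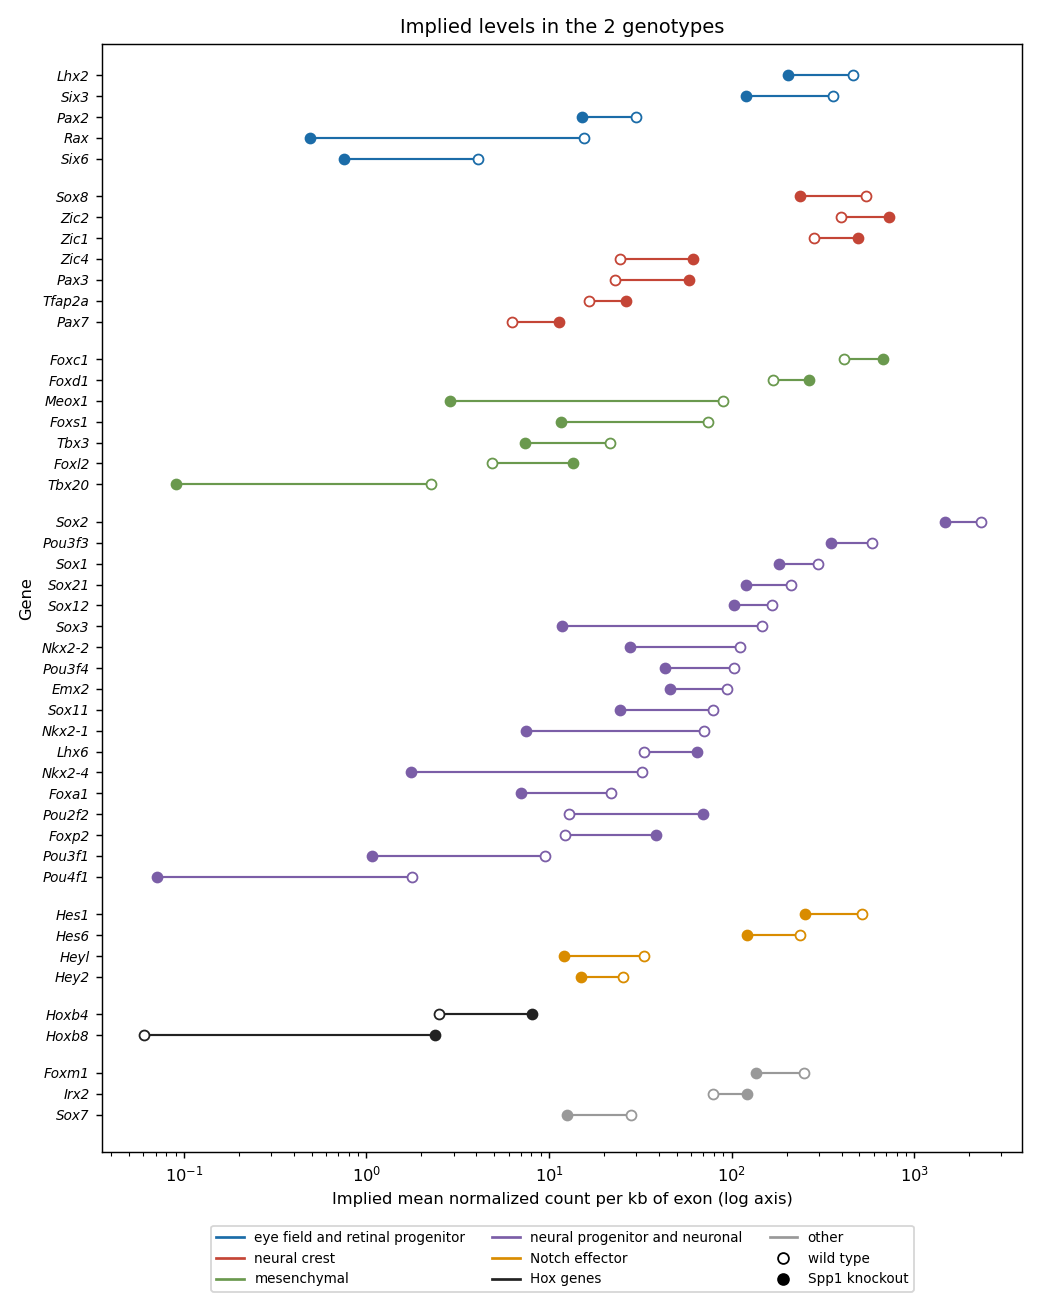
Implied mean normalized count per kb of exon (x axis, log scale) in wild type (open circles) and knockout (filled circles), joined by a line, for 46 of the 48 members (y axis), coloured by role. Sox2 is highest in both genotypes, and Rax, Meox1, Tbx20, Sox3 and the Nkx2 genes show long shifts to the left.

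On the Notch effector list, which takes in all Hes and Hey genes, all 4 listed genes of 9 fell. Because the list holds Hes6, its direction is not read as a level of Notch signalling. Hes1, the main Notch-driven repressor of neural progenitors, went from 1050 to 516, at -1.03 (standard error 0.26, adjusted p = 7.1e-04) in the authors' deposited table. Heyl, an effector of vascular mural cells, stood at -1.45 (0.31), Hes6, an inhibitor of Hes1 activity, at -0.96 (0.39) and Hey2, an effector of arteries and heart, at -0.77 (0.24) in the authors' deposited table. The 4 intervals overlapped, so their falls are not separated in size. Of 25 other Notch pathway genes 6 were listed, 4 lower and 2 higher. The receptor Notch3 (-0.65, 0.14), the feedback gene Nrarp (-1.95, 0.50), and the ligand-like genes Dner (-0.67, 0.12) and Dlk1 (-0.86, 0.23) were lower in the authors' deposited table. The DNA-binding partner of Notch, Rbpj (0.73, 0.16), and the glycosyltransferase Mfng (1.71, 0.38) were higher in the authors' deposited table. Pericyte and smooth muscle markers (3 of 8 listed, summed implied mean 90160 against 46930) and neuron markers (5 of 8, 17940 against 8072) were lower beside the Notch effectors, and their part was not tested.

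Hox genes, which give cells of hindbrain, spinal cord and trunk their position, were represented by Hoxb4 and Hoxb8 of the B cluster. Both were higher, at very low counts. Hoxb4 went from an implied mean of 6.41 to 20.6, at 1.68 (0.58, adjusted p = 0.0148) in the authors' deposited table. Hoxb8 stood at 5.30 (standard error 1.962) in the authors' deposited table. Its implied means of 0.16 and 6.29 leave the size of the rise poorly fixed, with a 95% interval of 1.45 to 9.15. The genes lie 32951 bases apart on the plus strand of chromosome 11.

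The remaining members were Foxm1, Sox7 and Irx2. Foxm1, a forkhead gene of dividing cells, went from 1430 to 786, at -0.86 (0.16, adjusted p = 1.06e-06) in the authors' deposited table. Sox7, a gene of endothelial cells, stood at -1.16 (0.35) in the authors' deposited table, beside 3 listed endothelial markers of 8, of which Kdr and Cdh5 were higher and Flt1 lower. Irx2, an Iroquois homeobox gene, stood at 0.61 (0.25, adjusted p = 0.0478) in the authors' deposited table, the member nearest to the fold-change limit.

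Levels can be compared between genes per kb of exon. In wild type Sox2 led with an implied mean of 2306 per kb, followed by Pou3f3 (588), Sox8 (541) and Hes1 (516). In the knockout Sox2 still led with 1472 per kb, but Zic2 (729), Foxc1 (672) and Zic1 (492) came next. Zic2 moved from rank 8 to 2 and Foxc1 from 7 to 3, while Sox8 moved from 3 to 8 and Six3 from 9 to 16. Errors of these levels are not given in the table, so neighbours in this order are not separated.

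**Figure D4:**
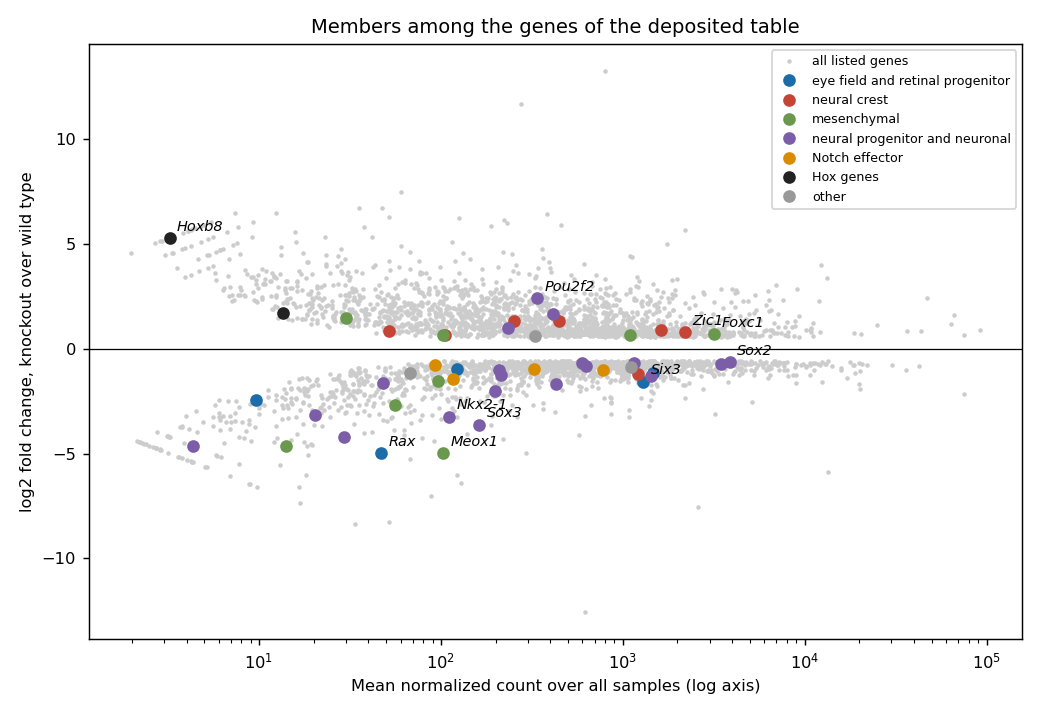
Log2 fold change (y axis) against the mean normalized count over all samples (x axis, log scale) for all 3624 listed genes (grey) and the 48 members (coloured by role). Rax and Meox1 lie near -5 among genes of mean count 47.0 and 103, and Hoxb8 and Pou4f1 lie at the left, with mean counts of 3.22 and 4.32.

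Lower members outnumbered higher ones at every abundance. They were 11 of 15 for members with a mean normalized count under 100, 13 of 21 from 100 to 1000, and 8 of 12 at 1000 or more, where all listed genes gave 44.2%, 44.2% and 47.6% lower. The standard error was 0.26 at the median of the members and 0.24 at that of all listed genes. The adjusted p was over 0.01 for 14 members.

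Promoter windows of the members were rich in CpG. RefSeq start windows of 300 bases (250 before the start and 50 after, GRCm38.p6) were matched by symbol for 33 of 48 members, with 40 windows. The median number of CpG dinucleotides was 21 per window, against 14 in windows of listed genes and 7 in all windows. It was 23 for members that were lower and 15 for those that were higher. GC content had a median of 63.5%, against 58.3% in listed genes and 52.7% in all. Short binding motifs were counted on either strand. The homeodomain core TAATTA was present in 5% of member windows, 2.97% of listed-gene windows and 5.29% of all windows. In the same order, the forkhead motif GTAAACA was present in 7.5%, 3.17% and 3.65%, and the Sox motif ACAATGG in 2.5%, 2.19% and 3.66%. The E-box CACGTG was present in 7.5%, 7.51% and 7.15%, and the TATA box TATAAA in 7.5%, 10.0% and 13.6%. These are 1 to 3 member windows for each motif and are given as a description.

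**Figure D5:**
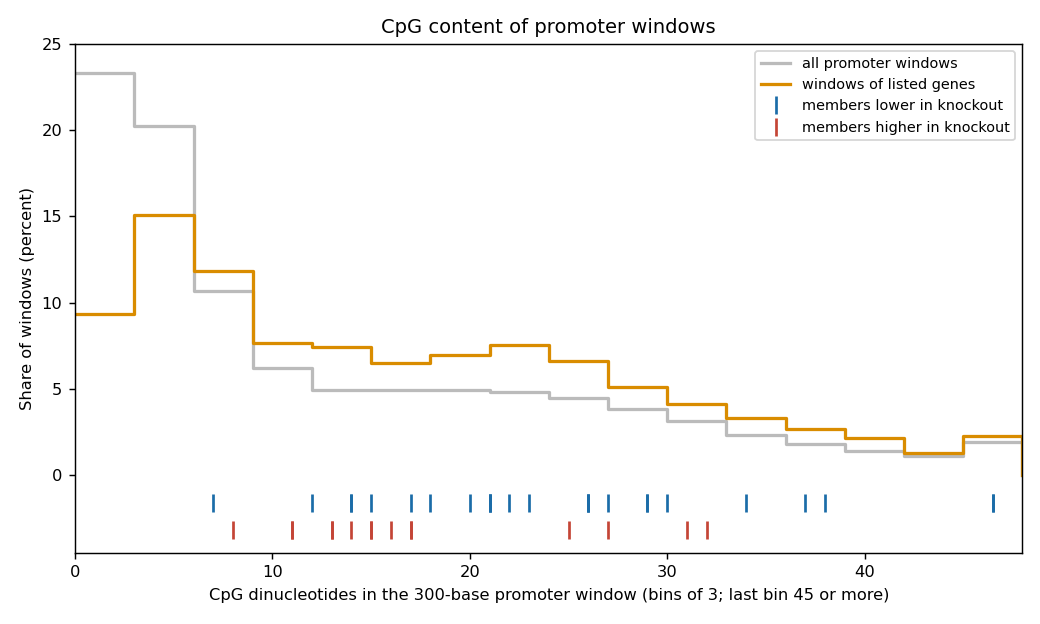
Share of promoter windows (y axis, percent) by the number of CpG dinucleotides in 300 bases (x axis) for all windows (grey line) and windows of listed genes (orange line), with the windows of members as ticks below the axis zero (blue lower, red higher, values over 45 drawn in the last bin). All but 1 of the 40 member windows hold more than 7 CpG dinucleotides, the median of all windows.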

How the data were processed

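RNA of 8 samples of primary cultured astrocytes was sequenced, 4 wild type and 4 Spp1 knockout. The submitters' processing notes list GRCm38, STAR 2.7, CASAVA 1.8 and DESeq2 1.30.1, without saying which step used which. The sources used here do not give the annotation, counting or strand use. The authors deposited 1 table of a comparison, with 0 columns for single samples. Its columns, per the file headers, are the mean normalized count over all samples (unit signal), the log2 fold change, its standard error, a Wald statistic (a score) and raw and adjusted p-values. It was filtered before deposit (adjusted p at most 0.0499, log2 fold change of 0.58 or more either way). Depth per sample is unknown, so the standard error carries the precision.

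No model was refitted and no gene set was tested. Implied means, 95% normal intervals from the standard error and counts by direction were computed with Python 3.11.15, numpy 2.4.6 and pandas 2.3.3, and these computations were tested on simulated data. Genes were matched by name to GENCODE M21 (GRCm38), 3586 of 3624 overall and all 48 members. Counts per kb used the union of annotated exons. Named were all members of the eye-field, crest, mesenchymal and Hox lists, of other lists those changed by 2 or more on the log2 scale, the 6 smallest adjusted p or the opposite direction, and up to 4 partner genes by adjusted p. The rest were added after their values were seen. Some genes that this rule names are counted but not reported singly here. The members and all lists were chosen with earlier results of these data known. Alternatives used a mean count of at least 100, a log2 fold change of at least 1, an adjusted p of at most 0.001, and left out non-coding transcripts or Hox genes.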

Additional observations from a re-analysis of the deposited data

How the results depend on the processing

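The share of members lower in the knockout was recomputed for all members and for 6 role lists under 4 other settings where members were left, and for all members once without Hox genes. The 3 members outside these lists were not recomputed separately. An implied mean of at least 5 in both genotypes, and leaving out the X chromosome for all members together, were added after seeing the data. Over all members the share was 66.7% and ranged from 63.4% (26 of 41, implied mean of at least 5) to 76.7% (23 of 30, a change of 1 or more on the log2 scale). Leaving out Hox genes gave 69.6%. The eye-field and Notch shares stayed at 100% and the Hox share at 0% wherever they could be computed, with 2 to 5 genes, or 1 Hox gene at an implied mean of at least 5. The crest share was 14.3% and at most 33.3%, and the neural share 84.2% and at least 80%. The mesenchymal share was 50%. It rose to 80% for changes of 1 or more on the log2 scale and fell to 25% at a mean count of at least 100. No Hox gene had an adjusted p of at most 0.001 or a mean count of at least 100. All 48 members were protein-coding, so leaving out non-coding transcripts changed nothing.

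No paired analysis was possible because the deposited table holds no value per sample; for the same reason no replicate was left out. What depth limits are the low genes: 1 member in wild type (Hoxb8) and 6 in the knockout had an implied mean under 5.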

Other observations

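Many members are genes without introns. In the annotation 12 of the 48 members (25%) have a single exon in every transcript, against 2.56% of all listed protein-coding genes. Of these 12 members 9 were lower and 3 higher, and of the 90 listed single-exon protein-coding genes 58 were lower and 32 higher.

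Exons of 18 members overlap exons of another annotated gene, 13 of them on the opposite strand. Rax shares the most, 27.4% of its exon bases with the antisense gene Raxos1, which was not listed.

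Homeobox genes outside the name rule were rarely listed, 4 of 49. Hhex, a homeobox gene of blood and endothelial precursors, stood at 2.002 (standard error 0.33) in the authors' deposited table. Hopx, an atypical homeobox protein that does not bind DNA, stood at -1.01 (0.22), Satb1, a chromatin organiser, at -0.93 (0.22) and Gsc, the goosecoid gene, at -2.67 (1.08) in the authors' deposited table. Transcription factors of blood and endothelial precursors were 4 of 5 listed, with Lyl1 at 2.52 (0.30), Fli1 at 2.12 (0.19) and Tal1 at 1.70 (0.28) higher and Gata2 at -1.065 (0.40) lower in the authors' deposited table. All 8 macrophage markers were higher beside them, and their part was not tested.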
